A study of Mus musculus with 6 samples.

Results

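The 10 genes described here are the NF-kB subunit genes Nfkb1, Nfkb2, Rela and Relb, the inhibitor genes Nfkbia and Tnfaip3, the ubiquitin ligase genes Birc2 and Birc3, and the adhesion targets Icam1 and Vcam1. They were chosen by symbol from the 37224 Ensembl gene IDs of the deposited expression table, and each symbol matched 1 ID. The table holds RNA-seq of primary mouse embryonic fibroblasts (connective tissue cells grown from mouse embryos) of the C57BL/6 strain. Cells were wild type or Dot1L-/- (also labelled mutant, here called Dot1L null), and were left untreated or were exposed for 24 h to sodium arsenite, an inorganic arsenic salt. Dot1L is the enzyme that methylates lysine 79 of histone H3. The labels call the exposure low dose, the protocol lists 5 and 10 µM beside the control, and the sources do not say which of them was sequenced. The 4 groups held 1 library each, so each difference below sets a library against a library and no test against replicate error could be made. The labels call the cells primary while the protocol speaks of cell lines, so each genotype may stand for a single culture. Neither the number of embryos nor the making of the Dot1L allele is described.

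NF-kB factors are dimers of Rel proteins. In resting cells the inhibitor encoded by Nfkbia holds dimers that contain the Rela protein in the cytoplasm. When receptors such as those for tumor necrosis factor or interleukin 1 are engaged, the inhibitor is destroyed, the dimers enter the nucleus and transcription of target genes starts. Among these targets are Nfkbia and Tnfaip3, which close negative feedback loops, the subunit genes Nfkb1, Nfkb2 and Relb, the apoptosis inhibitor Birc3, and the adhesion molecules Icam1 and Vcam1, which bind leukocyte integrins.

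Because several of these genes are known NF-kB targets, their promoters are shown first, with the sequence motif that NF-kB dimers bind. Of the 10 genes, 7 had an entry in the RefSeq promoter table of build GRCm38.p6 (Nfkb2, Rela, Nfkbia, Tnfaip3, Birc2, Birc3 and Icam1), with 11 annotated starts in all. The 250 bases before each start were searched on both strands for the 10-base kB consensus GGGRNNYYCC. Here R is A or G, Y is C or T, and N is any base. Sites that depart from this pattern were not counted. A match was found in 5 of the 11 windows and in 3 of the 7 genes, Nfkb2, Nfkbia and Tnfaip3. Every Nfkb2 window held a match, and those of its starts numbered 2 and 3 overlap, so the windows are not independent. Among all entries 7.25% of 32851 windows and 8.23% of 27025 genes held it. Nfkb2 and Tnfaip3 had more than 1 annotated start, and the window of the start farthest upstream in that table is shown for each. These 3 windows are printed 5′ to 3′ on the strand of the gene, with bases covered by a match in capitals.
Nfkb2, plus strand, chr19:46304487-46304736: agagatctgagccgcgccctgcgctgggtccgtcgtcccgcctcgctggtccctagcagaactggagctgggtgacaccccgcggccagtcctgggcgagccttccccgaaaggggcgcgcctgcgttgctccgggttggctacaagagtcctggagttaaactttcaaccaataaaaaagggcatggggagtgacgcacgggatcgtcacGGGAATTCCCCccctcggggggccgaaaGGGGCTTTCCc
Nfkbia, minus strand, chr12:55492648-55492897: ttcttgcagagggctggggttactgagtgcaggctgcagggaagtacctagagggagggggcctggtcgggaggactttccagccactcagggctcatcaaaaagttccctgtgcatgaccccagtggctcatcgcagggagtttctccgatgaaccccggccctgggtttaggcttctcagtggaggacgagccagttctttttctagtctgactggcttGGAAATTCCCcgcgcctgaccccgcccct
Tnfaip3, minus strand, chr10:19015411-19015660: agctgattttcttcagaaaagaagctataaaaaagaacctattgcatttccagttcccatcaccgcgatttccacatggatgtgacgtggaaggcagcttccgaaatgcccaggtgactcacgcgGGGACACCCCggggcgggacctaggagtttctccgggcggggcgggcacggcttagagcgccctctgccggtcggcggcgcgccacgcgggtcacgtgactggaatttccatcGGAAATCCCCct
Positions below are those of the base of a match that lies farthest from the start. The Nfkbia match read GGGAATTTCC on the strand opposite to the gene and reached to 29 bases before the start. In Tnfaip3 the match nearest the start read GGGGATTTCC, again on the opposite strand, and reached to 12 bases before it. A second stretch, 125 bases before the start, matched on both strands. In Nfkb2 the palindrome GGGAATTCCC, 39 bases before the start, overlapped a further match on the opposite strand, and GGGGCTTTCC lay 11 bases before the start. A match describes these letters and does not show that a factor binds there.

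Depth differed between treatments. The reads by which the authors divided, recovered from the whole-read steps of their RPKM values (read numbers per unit of gene length and sequencing depth), were 62972880 and 64699847 in the wild-type and null controls, and 10833103 and 11879632 with arsenite. For the 12588 genes that reached an RPKM of 1 somewhere among the libraries, the median log2((RPKM + 1)/(RPKM + 1)) was −0.56 for arsenite against control in wild type and −0.53 in the null. It was −0.17 for null against wild type without arsenite and −0.28 with it, and differences are to be read against these medians. Arsenite differences also followed gene length: in wild type the median stood at 0.33 between lengths of 1000 and 2000 bases, and at −1.28 between 6000 and 8000 bases. Values with that trend removed are therefore given as well. Its part in the differences was not tested. Dot1l itself had an RPKM of 30.4 and 9.59 in the wild-type and null controls and of 5.71 and 1.24 with arsenite. It was therefore lower in the libraries labelled null but not absent, and the totals per gene do not show a deleted part. Of 11 fibroblast markers 8 passed the filter, while Thy1 was listed at 0 in every library and Lum and Fap stayed under an RPKM of 0.1. The summed RPKM of the 11 genes ranged from 2275 to 12118. In the arsenite libraries most of the sum was S100a4, at 4191 in wild type and 10957 in the null. S100a4 stood at 688 and 949 in the wild-type and null controls. Ptprc, the pan-leukocyte marker, reached at most 0.00819. The endothelial marker Pecam1 reached at most 0.0589. Of 12 macrophage and leukocyte markers 3 passed, and their summed RPKM was 23.8 and 16.8 in wild type without and with arsenite, and 4.83 and 11.1 in the null. Most of it in wild type was Cd14, at 21.1 and 11.6. Cd68 stood at 2.59 and 4.26 in wild type without and with arsenite, and at 2.02 and 5.56 in the null. Lyz2 stood at 0.0125 and 0.729 in wild type, and at 1.16 and 2.99 in the null. Both Cd68 and Lyz2 were higher with arsenite in each genotype. The 8 epithelial markers summed to at most 3.27, and the 8 endothelial markers to at most 2.23. Of 6 smooth muscle and pericyte genes 2 passed, with a sum from 101 to 1576, mostly Acta2. The part of any of these in the results was not tested.

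**Figure D1:**
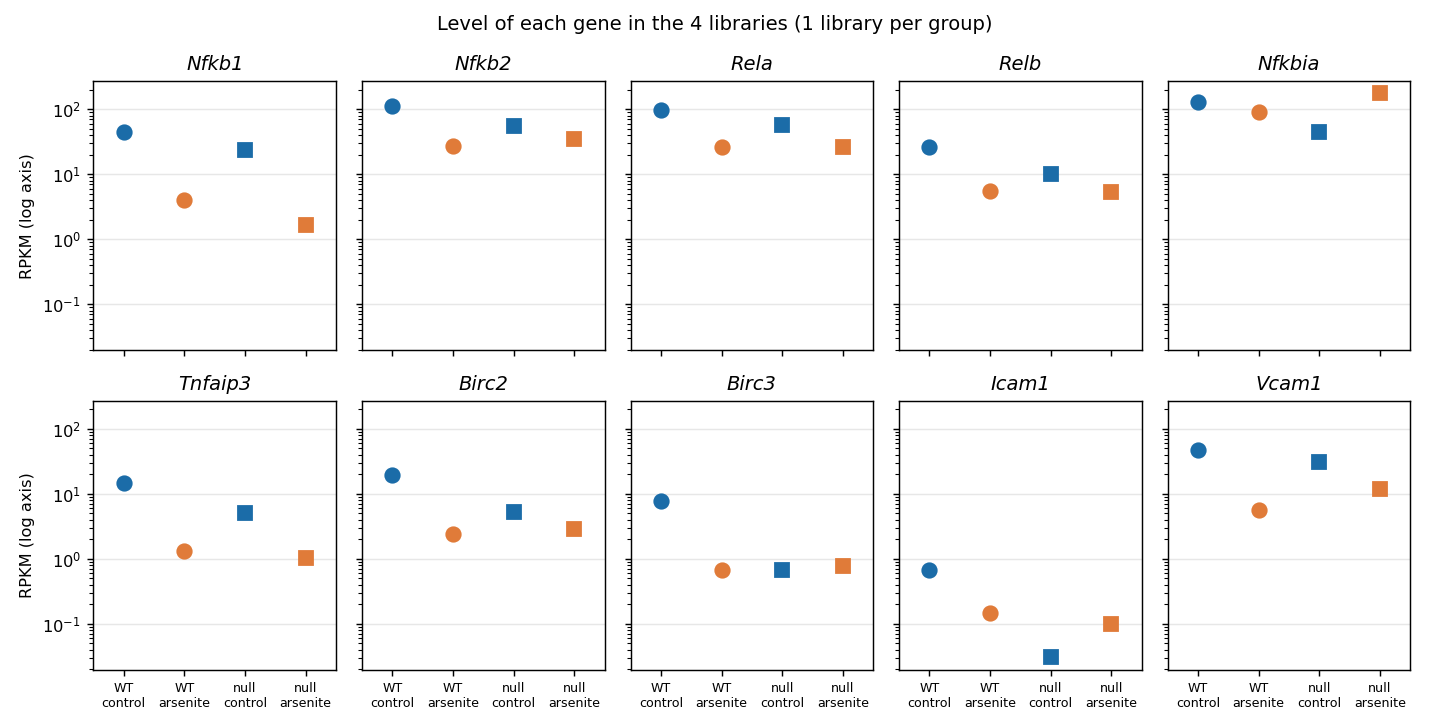
RPKM of each gene on a shared log axis, with 1 point per library: circles are wild type, squares are Dot1L null, blue is control and orange is arsenite. The wild-type control is the highest library for 9 of the 10 genes, and Nfkbia, at 177 in the null with arsenite, is the exception.

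All 10 genes were lower with arsenite than without it in wild-type cells, although Nfkbia and Icam1 were no longer lower after median centring, at 0.06 and 0.00994 on the log2 scale. Of the 9 that passed the filter on low values, 8 were at least 2-fold lower on the log2(RPKM + 1) scale and none was higher, where 35.7% of all genes tested were at least 2-fold lower, 12.8% at least 2-fold higher and 67.3% were lower by any amount. The median of the 9 was −2.38, against −0.56 for all genes. With the length trend removed it was −1.47, with 8 of 9 past 2-fold, against 15.4% of genes lower and 15.8% higher, and Nfkbia was the gene left out each time. Without Birc3, which passed the filter through the wild-type control alone, 7 of 8 were past 2-fold. In bulk RNA fewer cells expressing a gene and less RNA per cell cannot be told apart. In null cells the picture was mixed: 4 of 9 were at least 2-fold lower, where 37.1% of genes were, and 1 was at least 2-fold higher, where 15.2% were. The median was −0.82. With the length trend removed it was −0.12, and 1 gene was lower and 2 were higher, where 21.0% and 20.0% of genes were. The fibroblast markers moved in the same way. Of the 8 past the filter 6 were at least 2-fold lower in wild type and 1 higher, with a median of −2.50, and 3 were lower and 1 higher in the null, with a median of −0.83. Their part in the members' differences was not tested.

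**Figure D2:**
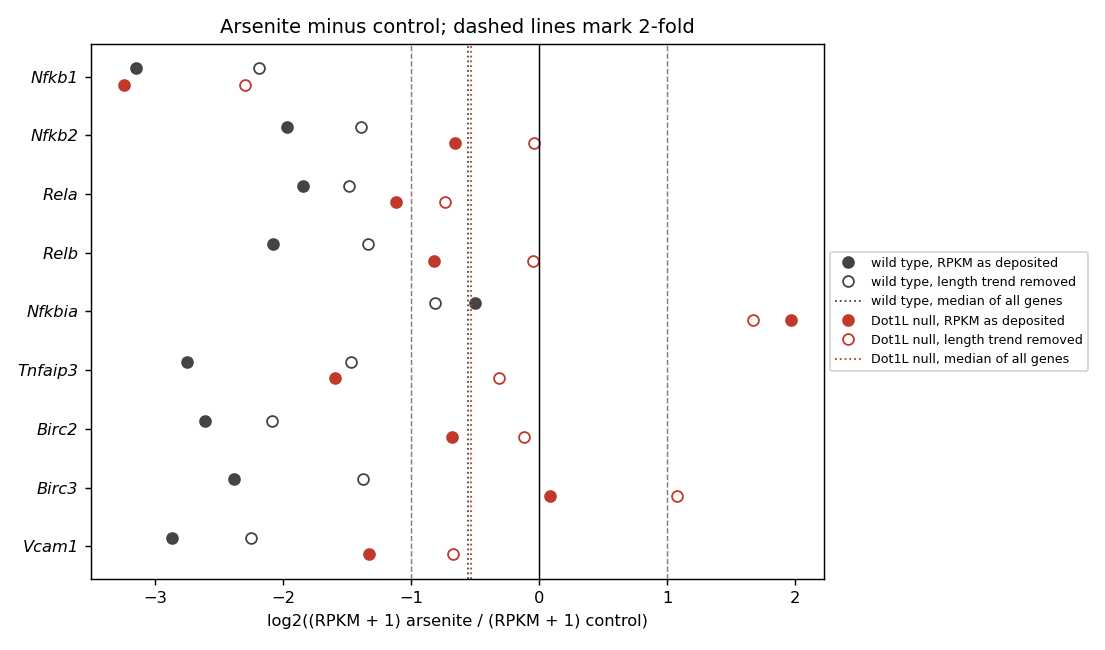
Log2 difference, arsenite minus control, of the 9 genes past the filter in wild type (grey) and Dot1L null (red), as deposited (filled) and with the trend on gene length removed (open). In wild type 8 of the 9 filled points lie left of the 2-fold line at −1. In the null 4 do, and Nfkbia lies at 1.97.

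Among the subunits, Rela (ENSMUSG00000024927, chromosome 19, 5637442 to 5648134 in GRCm38) encodes the transactivating partner of the classical dimer. Wild-type cells held it at an RPKM of 97.0 untreated and 26.3 with arsenite, and null cells at 57.4 and 25.9. The controls were high and the arsenite libraries low and close to each other. Rela was 3.69-fold lower with arsenite in wild type (95% counting interval of the ratio of reads 3.43 to 3.97) and 2.22-fold lower in the null (2.07 to 2.38). On the log2(RPKM + 1) scale these differences were −1.85 and −1.12, and −1.48 and −0.73 with the length trend removed, so that the null was no longer past 2-fold. Counting intervals cover the sampling of reads alone, treat each read as an independent molecule, and leave out variation between cultures. Between the arsenite libraries the null to wild-type ratio was 0.986 (0.893 to 1.09), so no difference was detectable at this depth.

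Nfkb1 (ENSMUSG00000028163, chromosome 3, 135584655 to 135691969) encodes the precursor of the DNA-binding partner of Rela. Its levels, as RPKM, were 44.1 (wild-type control), 4.08 (wild type, arsenite), 23.9 (null control) and 1.64 (null, arsenite), and later sets of 4 values keep this order. Of the 4 member subunits it was the lowest relative to its control in both genotypes, 10.8-fold lower in wild type (9.45 to 12.5) and 14.6-fold lower in the null (11.9 to 18.1). Its log2 differences, −3.15 and −3.24, were nearly equal, and with the length trend removed they were −2.19 and −2.29. The difference of these effects, null minus wild type, was −0.09, and positive for the other 9 members. For Nfkb1 it depended on the pseudocount, and was positive, at 0.31, with a pseudocount of 5. Without a pseudocount the ratio of arsenite to control was 0.0924 in wild type and 0.0685 in the null. The null was thus the further below its control, with counting intervals that overlap. With arsenite the null stood 2.49-fold below wild type (1.94 to 3.21).

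Nfkb2 (ENSMUSG00000025225, chromosome 19, 46300994 to 46312400) encodes the precursor that the noncanonical pathway processes, and Relb (ENSMUSG00000002983, chromosome 7, 19606217 to 19629438) its dimer partner. Nfkb2 stood at an RPKM of 111, 27.6, 55.7 and 35.0, which is 4.02-fold lower with arsenite in wild type (3.78 to 4.29) and 1.59-fold lower in the null (1.5 to 1.68). Relb had RPKM values of 26.5, 5.51, 10.3 and 5.40, and was 4.8-fold (4.21 to 5.50) and 1.91-fold (1.68 to 2.18) lower. For both genes the wild-type control was high, the null control intermediate, and the arsenite libraries low. With the length trend removed their log2 differences were −1.39 and −1.34 in wild type, and −0.04 and −0.05 in the null.

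The mix of subunit transcripts differed with treatment, a comparison within a library. No scaling between libraries touches it, but the length trend was not removed from it. The summed RPKM of the 4 genes was 279, 63.5, 147 and 68.0. Nfkb1 made up 15.8% of that sum in untreated wild type and 16.2% in the untreated null, but 6.42% and 2.41% with arsenite. Nfkb2 made up 39.9% and 37.8% in the controls and 43.5% and 51.5% with arsenite. The ratio of Nfkb2 to Nfkb1 was 2.52 (2.47 to 2.57) and 2.33 (2.26 to 2.40) in the controls against 6.78 (5.83 to 7.90) and 21.4 (17.3 to 26.7) with arsenite. Nfkb1 has the longest recovered length of the 4 genes, 4779 bases against 3289 for Nfkb2. The arsenite length trend at the lengths of Nfkb1 and Nfkb2 was −0.96 and −0.58 on the log2 scale in wild type. In the null it was −0.95 and −0.62. Its part in these shares and ratios was not tested. Relb to Rela was 0.273, 0.210, 0.179 and 0.208 in the 4 libraries, with the highest value in the wild-type control.

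The inhibitors were led by Nfkbia (ENSMUSG00000021025, chromosome 12, 55489409 to 55492647), which encodes the inhibitor that retains Rela dimers and is itself a rapid NF-kB target. Its RPKM was 131, 92.1, 44.4 and 177. The null with arsenite was the highest library and the null control the lowest, an order that no other member shared. In the null it was 3.98-fold higher with arsenite (3.80 to 4.16), and 1.67 higher on the log2 scale with the length trend removed. In wild type it was 1.42-fold lower (1.35 to 1.5). That wild-type direction depended on scaling: the log2 difference of −0.50 became 0.06 after median centring and 0.00 after 75th percentile scaling, and −0.81 with the length trend removed. Among all genes tested its difference stood at percentile 51.8 in wild type and 94.6 in the null. With the length trend removed it stood at percentile 20.2 and 92.1.

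Relative to each subunit gene within a library, Nfkbia was more abundant with arsenite in both genotypes. Nfkbia to Rela was 1.35 (1.32 to 1.38) in untreated wild type and 3.51 (3.22 to 3.83) with arsenite, and 0.773 (0.746 to 0.801) and 6.82 (6.32 to 7.36) in the null. Nfkbia to Nfkb1 was 2.97 and 22.6 in wild type, and 1.86 and 108 in the null. The null control held the lowest ratio and the null with arsenite the highest for each of the 4 subunit genes. These ratios show unequal differences of the genes in a pair and do not say which of them moved. The recovered length of Nfkbia, 1577 bases, is the shortest among the members. The length trend at that length differs from that at the length of Rela by 0.68 on the log2 scale in each genotype. Rela is the shortest subunit gene, and the gap is wider for the others. The trend was 0.31 in wild type and 0.30 in the null at the length of Nfkbia. At that of Nfkb1 it was −0.96 and −0.95, at that of Relb −0.74 and −0.77, and at that of Nfkb2 −0.58 and −0.62. These ratios were not corrected for it, and its part was not tested.

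**Figure D3:**
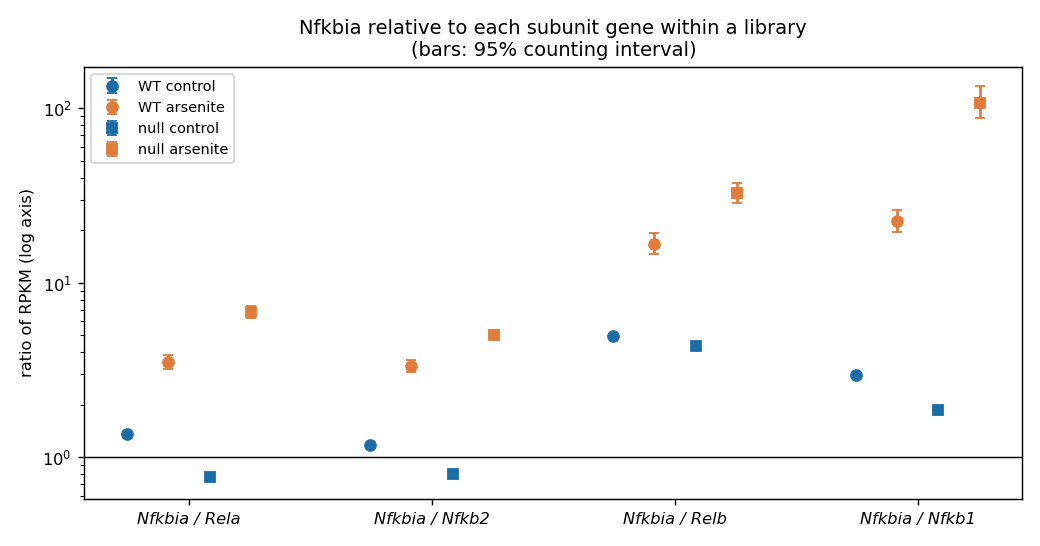
Ratio of Nfkbia RPKM to that of each subunit gene within a library, on a log axis, with 95% counting intervals; circles are wild type, squares are Dot1L null, blue is control and orange is arsenite. For each pair both arsenite libraries lie above both controls, and the null with arsenite is the highest.

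Tnfaip3 (ENSMUSG00000019850, chromosome 10, 19000910 to 19015410) encodes A20, a ubiquitin-editing enzyme that shuts the pathway off. Its RPKM was 14.7, 1.33, 5.08 and 1.01, with the arsenite libraries lowest. It was 11.1-fold lower with arsenite in wild type (9.13 to 13.6) and 5.02-fold lower in the null (4.05 to 6.29). The ratio of Tnfaip3 to Nfkbia was nearly the same in the controls, 0.112 for wild type and 0.114 for the null, against 0.0144 and 0.00574 with arsenite. The recovered length of Tnfaip3, 7226 bases, is the longest among the members. Its log2 differences of −2.75 in wild type and −1.60 in the null were −1.47 and −0.31 with the length trend removed.

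Birc2 (ENSMUSG00000057367, 7818226 to 7837131) and Birc3 (ENSMUSG00000032000, 7847468 to 7873205) are neighboring paralogs on chromosome 9. They encode ubiquitin ligases that relay signals from tumor necrosis factor receptors and restrain the noncanonical pathway. Reads that the pair could share were not examined. Birc2 stood at an RPKM of 19.7, 2.39, 5.22 and 2.88, which is 8.24-fold lower with arsenite in wild type (6.62 to 10.4) and 1.82-fold lower in the null (1.49 to 2.24). Its log2 differences of −2.61 and −0.68 were −2.08 and −0.12 with the length trend removed.

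Birc3 had RPKM values of 7.77, 0.682, 0.682 and 0.790, so the wild-type control was high and the other 3 libraries were low. In wild type it was 11.4-fold lower with arsenite (8.24 to 16.2). In the null the ratio of arsenite to control was 1.16 (0.827 to 1.59), and no difference was detectable. Its level in the null control, 221 reads, was already 11.4-fold below that of the wild-type control (9.92 to 13.1). Its log2 differences of −2.38 in wild type and 0.09 in the null were −1.37 and 1.08 with the length trend removed. Birc3 passed the filter through the wild-type control alone, so it had to be lower elsewhere, and its differences from that library follow in part from the filter. The ratio of Birc2 to Birc3 was 2.54 in the wild-type control, 3.5 in arsenite-treated wild type, 7.66 in untreated null cells and 3.64 in treated ones.

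Of the adhesion molecules, Vcam1 (ENSMUSG00000027962, chromosome 3, 116110020 to 116129688), the ligand of integrin alpha 4 beta 1, was well expressed. Its RPKM was 48.1, 5.73, 30.9 and 11.7, with both controls above both arsenite libraries. It was 8.38-fold lower with arsenite in wild type (7.32 to 9.65) and 2.64-fold lower in the null (2.40 to 2.90). Its log2 differences of −2.87 and −1.33 were −2.25 and −0.67 with the length trend removed, and the null was then no longer past 2-fold. Between the arsenite libraries the null was 2.04-fold higher (1.73 to 2.41), and between the controls 1.56-fold lower (1.51 to 1.61). In wild type its log2 difference stood at percentile 1.89 of all genes, and at percentile 1.76 with the length trend removed.

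Icam1 (ENSMUSG00000037405, chromosome 9, 21015940 to 21028814), a ligand of leukocyte beta 2 integrins, was barely expressed and did not pass the filter. Its reads numbered 108 in the wild-type control, 4 in wild type with arsenite, 5 in untreated null cells and 3 in treated ones. The corresponding RPKM values were 0.675, 0.145, 0.0304 and 0.0994, so the wild-type control alone was above the rest. It was 4.64-fold lower with arsenite in wild type (1.76 to 17.4) and 22.2-fold lower in the null control than in the wild-type control (9.22 to 69.7). In the null the ratio of arsenite to control was 3.27 (0.507 to 16.8), and between the arsenite libraries the ratio of null to wild type was 0.684 (0.1 to 4.04). Neither shows a difference at this depth.

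**Figure D4:**
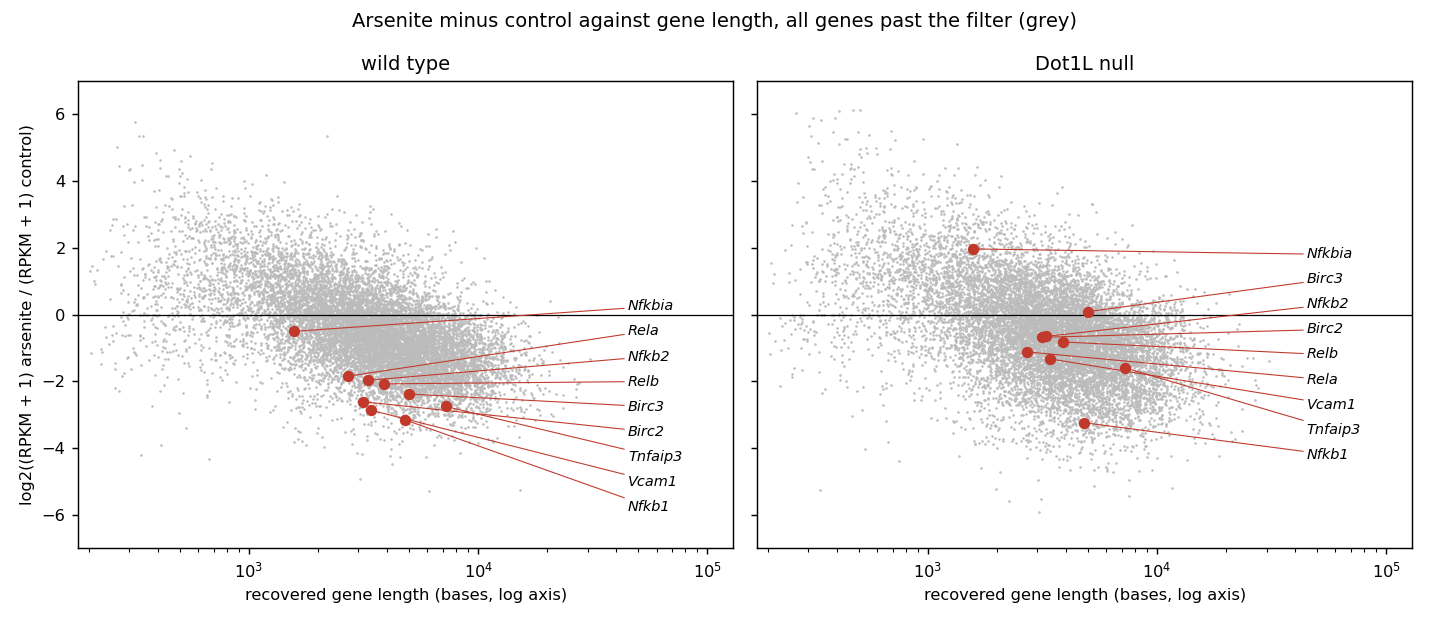
Log2 difference, arsenite minus control, against recovered gene length for all genes past the filter with a length of at least 200 bases (grey) and for the 9 members (red), in wild type and Dot1L null. Longer genes lie lower in both panels. In wild type the members lie in the lower part of the cloud at their lengths, while in the null Nfkbia and Birc3 lie in the upper part and Nfkb1 near the bottom.

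Without arsenite the null library stood below the wild-type library for all 10 genes. Of the 9 past the filter 5 were at least 2-fold lower and none higher, where 14.7% of all genes were at least 2-fold lower, 6.45% at least 2-fold higher and 59.9% were lower by any amount. Birc3 is among the 5 and passed the filter only through the wild-type control, and without it the count was 4 of 8. The median of the 9 was −1.28, against −0.17 for all genes. Birc3 stood 11.4-fold lower, Birc2 at 3.77-fold (3.52 to 4.04), Nfkbia at 2.95-fold (2.85 to 3.05), Tnfaip3 at 2.89-fold (2.76 to 3.03) and Relb at 2.57-fold (2.46 to 2.69). The inhibitor and ubiquitin ligase genes were thus past 2-fold, except that Tnfaip3 stood at −0.97 with a pseudocount of 5. Nfkb2, at 2.00-fold (1.95 to 2.04), fell just short of the threshold on the log2(RPKM + 1) scale with a difference of −0.98. Nfkb1, at 1.84-fold (1.79 to 1.90), and Rela, at 1.69-fold (1.65 to 1.73), were less far apart. The length trend was shallow here, and with it removed the same count of 5 was past 2-fold, against 10.9% of genes lower and 9.22% higher.

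Between the arsenite libraries no member was 2-fold apart on that scale, where 16.9% of genes were at least 2-fold lower in the null and 8.75% higher. The median was 0.09. With the length trend removed 2 were higher and none lower, where 12.5% and 8.96% of genes were. As ratios without the pseudocount, Nfkb1 was 2.49-fold lower and Vcam1 2.04-fold higher in the null, and Nfkbia was 1.92-fold higher (1.80 to 2.04). For Rela, Relb, Tnfaip3, Birc2, Birc3 and Icam1 the counting interval of the ratio contained 1. The small differences of Rela (−0.02), Relb (−0.03) and Tnfaip3 (−0.21) became positive after median centring and with the length trend removed, and those of Rela and Relb also after 75th percentile scaling.

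The log2 arsenite effect in the null exceeded that in wild type by 1 or more for 7 of the 9 genes and at most −1 for none, where 12.1% of all genes were at least 1 and 12.8% at most −1. Without Birc3, kept by the filter through the wild-type control alone, the count was 6 of 8. The difference was 2.47 for Nfkbia and for Birc3, 1.93 for Birc2, 1.54 for Vcam1, 1.32 for Nfkb2, 1.26 for Relb, 1.16 for Tnfaip3 and 0.73 for Rela. The median was 1.32, against −0.06 for all genes, and 1.41 with the length trend removed, where 7 were again at least 1, against 12.2% of genes, with 11.1% at most −1. The wild-type control, in which 9 of the 10 genes were highest, enters this difference, the arsenite comparison in wild type and the comparison of the controls. For the 8 fibroblast markers past the filter the median was 1.19, with 5 of at least 1 and none of at most −1, and its part was not tested. The smooth muscle genes Acta2 and Tagln also moved, with arsenite effects of 0.41 and 1.49 in wild type and of 4.03 and 3.57 in the null, and their part was not tested either. The 3 comparisons that share the wild-type control are not separate evidence, and no replicate of that library exists here.

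The other genes of the pathway were taken as 80 genes in 6 lists, and 68 passed the filter. With arsenite 39 of the 68 were at least 2-fold lower in wild type and 1 was higher (median −1.13), where 35.7% and 12.8% of all genes were. After removal of the length trend these counts were 17 and 4 (median −0.52), against 15.4% and 15.8%. In the null 27 were lower and 7 higher (median −0.62), where 37.1% and 15.2% of all genes were, so the lower share was near the background. After removal of the trend 12 were lower and 17 higher (median 0.05), against 21.0% and 20.0%. The same all-gene shares apply to the lists below. The difference of the effects was at least 1 for 19 of the 68, where 12.1% of all genes were. It was at most −1 for 1, where 12.8% were. Its median was 0.24, against −0.06 for all genes. With the length trend removed the counts were again 19 and 1, against 12.2% and 11.1%. Icam5 is among the 39 lower in wild type and among the 19. It passed the filter through the wild-type control alone, so it had to be lower elsewhere, and these counts follow in part from the filter.

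**Figure D5:**
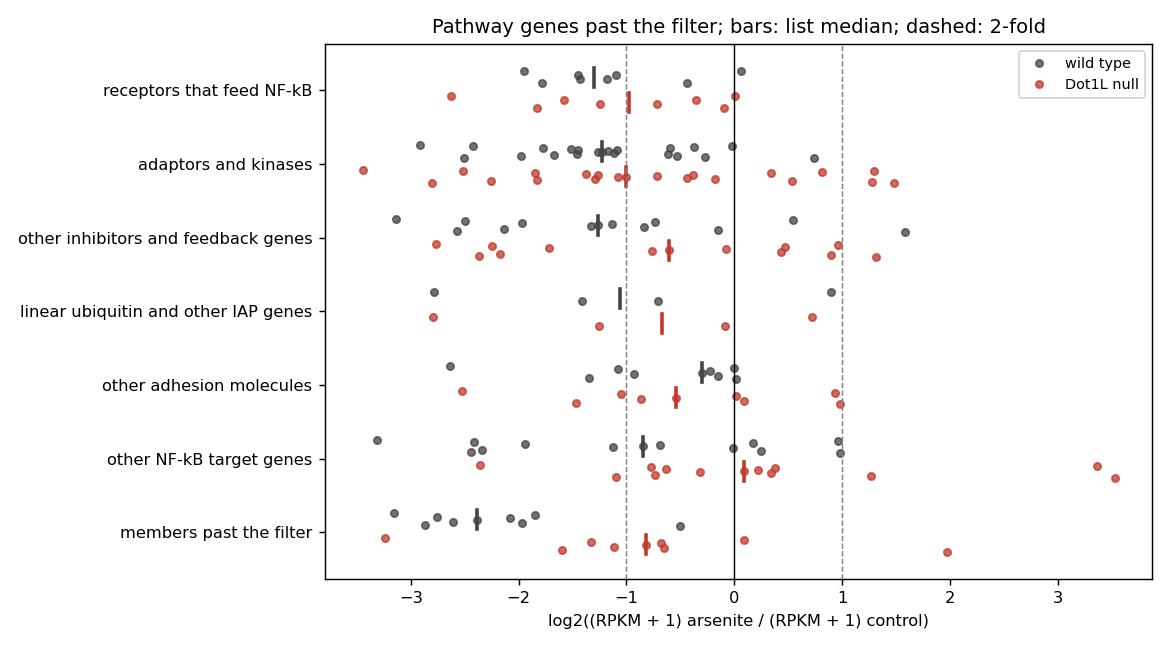
Log2 difference, arsenite minus control, of each pathway gene past the filter, by list, in wild type (grey) and Dot1L null (red); vertical bars are list medians and dashed lines mark 2-fold. The members' median is −2.38 in wild type, below each list's median, and −0.82 in the null, between those of the lists.

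Among 8 of 11 receptors past the filter, 6 were lower in wild type and 4 in the null, but 1 and 2 with the length trend removed. Il1r1, the interleukin 1 receptor, had RPKM values of 8.58, 1.48, 6.91 and 0.283, low in both arsenite libraries. Tnfrsf1b, a tumor necrosis factor receptor, had values of 9.67, 2.10, 6.40 and 5.93, so that only the wild-type arsenite library was low. Ltbr, the lymphotoxin beta receptor that feeds the noncanonical pathway, was higher in the null than in wild type with and without arsenite, with 38.9 and 28.4 in wild type and 91.7 and 91.9 in the null.

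All 21 adaptors and kinases passed, of which 14 were lower in wild type and none higher, and 11 lower and 3 higher in the null. With the length trend removed the counts were 3 lower and 1 higher in wild type and 4 lower and 6 higher in the null. Chuk, which encodes the inhibitor kinase alpha, had RPKM values of 20.8, 1.89, 22.7 and 1.17. Ripk1, the receptor-interacting kinase, had values of 10.4, 1.11, 8.5 and 0.357. The controls of the genotypes were thus close for these kinases and the arsenite libraries low. Traf1, an adaptor and known NF-kB target, followed another order, with values of 11.5, 3.36, 0.832 and 2.22. It was 13.8-fold lower in the null control than in the wild-type control (12.2 to 15.6), and 2.66-fold higher with arsenite in the null (2.15 to 3.29).

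Of 14 further inhibitors and feedback genes 13 passed. In wild type 8 were lower and 1 higher, and in the null 5 and 1. After removal of the length trend 4 were lower and 1 higher in wild type, and 3 lower and 3 higher in the null. Nfkbie, which encodes the epsilon inhibitor, had RPKM values of 38.2, 5.6, 5.26 and 7.47, high in the wild-type control alone, as Birc3 was. Bcl3, an atypical inhibitor that binds the products of Nfkb1 and Nfkb2, had values of 13.8, 5.13, 3.10 and 7.01. Nfkbiz, another atypical member, had values of 16.4, 0.975, 8.32 and 0.805 and was low in both arsenite libraries. All 4 linear ubiquitin and other IAP genes passed, with 2 lower in each genotype, and 1 lower and 1 higher in each once the length trend was removed. Xiap, the X-linked relative of Birc2 and Birc3, had values of 10.8, 0.708, 8.63 and 0.391. It was 15.3-fold (12.1 to 19.6) and 22.1-fold (16.4 to 30.5) lower with arsenite. Its log2 differences, −2.79 in each genotype, were −1.39 in wild type and −1.43 in the null with the length trend removed.

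Among 15 other adhesion molecules 9 passed, of which 3 were lower in each genotype and none higher, near the share of all genes. After removal of the length trend 2 were lower in wild type, and 1 was lower and 2 were higher in the null. Against wild type without arsenite 5 of the 9 were lower in the null, where 14.7% of all genes were. With the length trend removed 3 were, against 10.9%. Icam5 is among the 5, and among the 3 lower with arsenite in wild type as deposited. It passed the filter through the wild-type control alone, so it had to be lower elsewhere. Mcam, a melanoma and vascular adhesion molecule, had RPKM values of 17, 1.90, 2.05 and 0.101. Cd44, the hyaluronan receptor, had values of 55.8, 45.2, 16.7 and 11.2, low in the null with and without arsenite. Jam2, a junctional adhesion molecule, was 16.7-fold lower in the null control (12.9 to 22.1), at 2.64, 2.12, 0.158 and 0.172.

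Of 15 other target genes 13 passed, with 6 lower in wild type and none higher, and 2 lower and 3 higher in the null. After removal of the length trend 6 were lower and 1 higher in wild type, and 1 lower and 5 higher in the null. The acute phase gene Saa3 had RPKM values of 94.7, 185, 92.3 and 1076. Lcn2, which encodes the iron-sequestering lipocalin 2, had values of 34.1, 33.7, 29.8 and 316. Both were highest in the null with arsenite, as Nfkbia was. In the null Saa3 was 11.7-fold higher with arsenite (11.2 to 12.2) and Lcn2 10.6-fold higher (10.2 to 11). The recovered length of Saa3 is 531 bases. Its log2 differences of 0.96 in wild type and 3.53 in the null were 0.04 and 2.41 with the length trend removed. Those of Lcn2, −0.02 and 3.36, were then 0.15 and 3.55. The complement gene C3 had values of 62.5, 5.37, 95 and 60.8, and the transcription factor gene Irf1 had values of 31.8, 5.06, 7.85 and 4.17. Rel, the fifth subunit gene, had 1039, 9, 219 and 1 reads, and was 19.9-fold lower with arsenite in wild type (10.4 to 43.6). For Rel in the null, with a single read, the ratio of arsenite to control was 0.0249 (0.000627 to 0.140).

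The series title concerns p300, the histone acetyltransferase that serves NF-kB as a coactivator. Its gene Ep300 had RPKM values of 23.1, 1.29, 24.2 and 0.558, low in both arsenite libraries and close in the controls. Arsenite differences followed gene length among all genes, and the value of Ep300 with that trend removed is not given here.

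Genes with the profile closest to that of Vcam1 were ranked by Euclidean distance of mean-centred log2(RPKM + 1) over the 4 libraries, among 11474 candidates. The nearest 3 were Mtss1 (distance 0.23), Scd2 (0.25) and Ltbp1 (0.30). Scd2, which encodes a fatty acid desaturase, had RPKM values of 258, 32.0, 132 and 56.7. Ltbp1, which encodes a matrix protein that binds latent transforming growth factor beta, had values of 98.0, 15.7, 63.6 and 30.6. For Icam1 the nearest were Actr8 (0.03), Sept6 (0.03) and Acadm (0.05). Because Icam1 is under an RPKM of 1, its profile on this scale is nearly flat, and these genes share that small range: Acadm had values of 15.2, 9.98, 9.08 and 9.99.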

How the data were processed

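RNA-seq of 4 libraries, 1 per group, was analysed; 2 H3K27ac ChIP-seq libraries were not analysed here. The authors deposited 1 table of RPKM values per Ensembl gene. TopHat, HTSeq, Bowtie and deepTools and build mm10 are named in the submitters' processing notes, without roles or versions. The labels give polyA RNA and the protocol a ribosomal RNA depletion kit, which is unsettled. Whether counting used strand is not given in the sources used here.

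Symbols came from the reference gene tables. Reads and gene lengths were recovered from the whole-read steps of the RPKM values, for all 21617 genes above 0, though a true length may be a whole multiple of the recovered one. Differences are log2((RPKM + 1)/(RPKM + 1)) over the 12588 genes that reached an RPKM of 1 in at least 1 library, and "2-fold" is a difference of 1 on that scale. With 1 library per group there is no test, SD or p-value. Ratios of reads carry exact conditional (Clopper-Pearson) 95% intervals. The length trend was a lowess fit (statsmodels 0.14.6, fraction 0.3) over 12155 genes of at least 200 bases. No count model was run on the recovered reads, since no group has a replicate. Calculations used Python 3.11.15, pandas 2.3.3 and scipy 1.17.1, and read recovery and the trend fit were tested on simulated data. The members and gene lists were chosen with earlier results of these data known. Named pathway genes are the up to 3 with the largest absolute difference per list and comparison, plus Dot1l and Ep300. Marker genes named singly were picked after their values were seen.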

Additional observations from a re-analysis of the deposited data

Results flagged for a closer look

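Genes are given here because arsenite and control libraries differed in opposite directions in the 2 genotypes. With 1 library per group the difference between genotypes was not tested. Values are log2((RPKM + 1)/(RPKM + 1)), arsenite against control. Nfkbia was −0.50 in wild type and 1.97 in the null. Birc3 was −2.38 in wild type and 0.0897 in the null. Icam1 was −0.55 in wild type and 0.0935 in the null. The Nfkbia and Icam1 values in wild type changed sign with median centring, and Birc3 and Icam1 in the null rest on 47 and 3 reads with arsenite, with counting intervals that contain 1.

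Of the other pathway genes named by rule, 12 were lower in wild type and higher in the null as deposited. The rule takes the largest differences, also those of the arsenite effects between genotypes, and so favours such genes. The share of all genes with opposite directions is not given here, so the 12 cannot be read against it. With the length trend removed the wild-type values of Irak2, Ikbke, Jam2 and Lcn2 became positive, at 0.20, 1.37, 0.92 and 0.15, and that of Tnfrsf12a became −0.73. The counting interval of the ratio contained 1 for Ikbke and Lcn2 in wild type and for Ltbr, Icam5 and Jam2 in the null. The value in wild type and then in the null was −0.44 and 0.0019 for Ltbr, −1.51 and 0.81 for Traf1, −0.61 and 0.54 for Irak2. It was −0.59 and 1.28 for Traf5, −0.0224 and 1.29 for Ikbke, −2.57 and 0.44 for Nfkbie. It was −1.27 and 0.97 for Bcl3, −0.84 and 0.90 for Tnip3, −1.08 and 0.0898 for Icam5. It was −0.22 and 0.0175 for Jam2, −0.0166 and 3.36 for Lcn2, −1.12 and 1.27 for Tapbp. Tnfrsf12a ran the other way, at 0.0645 in wild type and −0.35 in the null.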

How the results depend on the processing

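No paired analysis was possible because each group has 1 library and the labels give no replicate numbers, and no library could be left out. The alternatives were pseudocounts of 0.1 and 5, no filter, a filter at an RPKM of 5, median centring, 75th percentile scaling and removal of the length trend. In wild type the counts of members past 2-fold with arsenite (0 higher, 8 lower) stayed within 1.5 times under each of them, as did those for the controls (0 and 5) and for the difference of the effects (7 and 0). In the null with arsenite, the 4 members lower became 2 with median centring, 2 with 75th percentile scaling and 1 with the length trend removed, where the 1 higher became 2. Between the arsenite libraries, where none was past 2-fold, 1 was higher and 1 lower with a pseudocount of 0.1, and 2 were higher with median centring, 75th percentile scaling or the length trend removed. The cause was not tested. Leaving out Birc3, chosen after seeing the data, gave 7 of 8 lower in wild type, 4 of 8 for the controls and 6 of 8 for the difference of the effects. Of the 50 single values (10 genes in 5 comparisons) 31 to 34 moved beyond their counting interval, or by 0.1 or more for the difference of the effects, under either scaling, the length correction or the pseudocount of 5, and 16 with the pseudocount of 0.1. None of at least 2-fold changed direction. Depth limits Icam1, with 3 to 5 reads in 3 libraries, and Birc3, with 37 and 47 reads with arsenite. The controls were 5.81 and 5.45 times deeper than the arsenite libraries.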
